A study of Mus musculus with 2 samples.

Results

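The genes described here are *Pdgfra*, *Kit* and *Kdr*, which encode receptor tyrosine kinases and follow each other on mouse chromosome 5, with the related receptor gene *Pdgfrb* and the ligand genes *Pdgfa*, *Pdgfc* and *Kitl*. They were measured in mouse embryonic stem cells (ESCs) with and without the histone methyltransferase G9a (gene *Ehmt2*), which together with its partner GLP places the H3K9me2 mark. All probe sets, the groups of short probes that read a transcript on the array, were taken whose annotation gives one of these symbols and no other. This gave 16 probe sets for the 7 genes, of 45101 probe sets and 18194 named genes in all. The genes were chosen on the differences between the same 2 arrays that are described below, *Pdgfra* above all, so the differences are descriptions and no test was made of them.

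The series holds 1 array of WT ESCs of the TT2 line, whose cells come from a cross of a C57BL/6 female with a CBA male, and 1 array of G9a-KO cells. In the G9a-KO cells 1 *G9a* allele was a mutant allele from earlier targeting, and exons 26 and 27, which encode the core of the catalytic SET domain, were removed by Cre from the other, floxed allele. The labels describe the same treatment for both groups, 800 nM 4-hydroxytamoxifen for 48 h and then 48 h without it, and the same medium with 10% knockout serum replacement, 1% fetal calf serum and leukemia inhibitory factor. Whether the WT cells were given the drug is not stated apart from this, and the methods of the study name serum-containing medium and, for G9a-KO cells, a layer of inactivated embryonic fibroblasts. With 1 array per group, neither the spread between cultures nor that between clones can be seen, and a culture effect cannot be told apart from the genotype. *Ehmt2* itself was 2.90-fold lower in G9a-KO by its brighter probe set (2.05 in WT and 0.51 in G9a-KO) and differed by 0.20 the other way by its dim one. Their place on the transcript, inside or outside the deleted exons, was not given, so the label is not checked by them. Whether the G9a-KO line is 1 clone was not stated. Levels are on the log2 scale relative to the 75th percentile of all probe sets of the array, so that 0 is that percentile, and the median of all probe sets lay at -2.24 (WT) and -2.13 (G9a-KO).

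PDGFRA, PDGFRB and KIT are class III receptor tyrosine kinases, which pair up on the cell surface when a ligand binds and then phosphorylate each other, and KDR is a close relative that binds VEGF. PDGF-A and PDGF-C signal mainly through PDGFRA, and KIT ligand, also called stem cell factor, through KIT. In the early mouse embryo PDGFRA is a marker of primitive endoderm, KIT is needed by primordial germ cells and blood progenitors, and KDR marks the mesoderm that gives rise to blood vessels and blood.

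The 250 bases before the annotated start are shown for the receptors that are neighbours on chromosome 5 and for *Pdgfc*, the ligand gene with the highest difference, because these windows differ widely in CpG dinucleotides, the bases at which DNA methylation takes place. The sequences are from RefSeq on build GRCm38.p6, run 5′ to 3′ towards the start on the strand of the gene, and have CpG in capitals. They lie at chr5:75152001-75152250 (+ strand) for *Pdgfra*, chr5:75574737-75574986 (+ strand) for the first of the start sites of *Kit*, chr5:75978456-75978705 (- strand) for *Kdr* and chr3:81036166-81036415 (+ strand) for *Pdgfc*.
Pdgfra: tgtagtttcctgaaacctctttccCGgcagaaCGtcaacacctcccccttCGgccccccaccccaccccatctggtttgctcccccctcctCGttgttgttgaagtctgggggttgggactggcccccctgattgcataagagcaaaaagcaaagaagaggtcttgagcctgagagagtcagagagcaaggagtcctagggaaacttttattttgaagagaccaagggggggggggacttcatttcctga
Kit: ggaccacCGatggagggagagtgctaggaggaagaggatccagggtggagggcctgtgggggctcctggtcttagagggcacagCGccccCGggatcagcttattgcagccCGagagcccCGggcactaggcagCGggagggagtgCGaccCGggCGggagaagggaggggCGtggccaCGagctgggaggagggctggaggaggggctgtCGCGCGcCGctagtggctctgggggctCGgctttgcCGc
Kdr: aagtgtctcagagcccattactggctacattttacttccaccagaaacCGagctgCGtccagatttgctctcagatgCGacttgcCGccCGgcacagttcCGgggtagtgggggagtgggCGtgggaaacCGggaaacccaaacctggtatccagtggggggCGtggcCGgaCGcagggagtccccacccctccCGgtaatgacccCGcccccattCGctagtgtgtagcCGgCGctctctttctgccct
Pdgfc: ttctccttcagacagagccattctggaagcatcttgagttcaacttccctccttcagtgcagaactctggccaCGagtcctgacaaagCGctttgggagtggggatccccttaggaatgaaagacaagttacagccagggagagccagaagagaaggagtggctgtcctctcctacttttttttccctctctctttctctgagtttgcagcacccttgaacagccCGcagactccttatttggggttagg

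The *Pdgfra* window holds 4 CpG and that of *Pdgfc* 3, whereas the windows of *Kit* (17, and 18 for its second start site), *Kdr* (16), *Kitl* (23) and *Pdgfa* (19 and 28) hold many more. Over 32851 such windows the median was 6 CpG, and 37.8% had fewer than *Pdgfra*, 29.0% fewer than *Pdgfc* and 76.5% fewer than *Kit*. GC content ran from 50.8% (*Pdgfc*) to 72.4% (*Pdgfa*, second start site). Windows were found for 6 of the 7 genes, all but *Pdgfrb*. The E-box CACGTG, to which MAX can bind, was in none of these windows and in 6.02% of all windows. The GATA motifs AGATAA and TGATAA, searched on both strands, were likewise in none, against 9.99% and 7.94% of all windows. Promoter methylation and factor binding were not measured here. Of the 3073 named genes with at most 4 CpG, a limit taken from *Pdgfra* after its window was seen, 5.47% were over 2-fold higher in G9a-KO, and 4.31% of the 11380 with more. At 1.3-fold the order was the opposite, with 15.5% of the former and 17.7% of the latter higher.

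*Pdgfra* had the highest difference of the 7 genes. Its brightest probe set, 1421917_at, was at -1.82 in WT and 2.22 in G9a-KO, a difference of 4.04 or 16.5-fold. The level thus went from just above the median of the WT array to near the top of the G9a-KO array (percentile 56.4 and 91.1 of all probe sets). Of all 18194 genes by their brightest probe set, *Pdgfra* held rank 23 from the highest difference. The size of this difference depended on the probe set. Probe set 1438946_at was at -2.31 in WT and -0.42 in G9a-KO and was 3.72-fold higher, and 1421916_at was at -3.27 and -2.46, 1.76-fold higher but below the median of both arrays. In bulk RNA, more cells of a type and more RNA per cell cannot be told apart. All *Pdgfra* probe sets gave a higher level in G9a-KO, but they spanned 3.23 on the log2 scale, a wider span than in 99.7% of the 9012 genes with several probe sets. The brightest and the dimmest of them were designed from the same source sequence.

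*Kit* was also higher in G9a-KO, by both of its probe sets. Probe set 1452514_a_at was at 0.23 in WT and 1.48 in G9a-KO, 2.39-fold higher, and lay above the 75th percentile of both arrays. Probe set 1415900_a_at was at -2.87 and -1.99, 1.84-fold higher, and was below the median in WT. The brightness of *Kit* in WT ESCs thus depended on the probe set, while both gave the same direction. The difference of *Kit* was 2.79 smaller than that of *Pdgfra* on the log2 scale, and its rank from the highest was 548.

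*Kdr*, the third receptor gene of the stretch, showed little difference by its single probe set. 1449379_at was at -1.79 in WT and -1.57 in G9a-KO, which is 1.16-fold higher and within 1.3-fold, the threshold of the study for this pair of arrays. The levels were a little above the median of all probe sets, at percentile 56.7 and 58.6. By brightest probe sets, the order of the differences was *Pdgfra*, *Kit* and *Kdr*, which is also the order of the genes along the chromosome. The dimmest *Pdgfra* probe set (0.81) lay below both of *Kit* (1.26 and 0.88), and nothing is read from the order.

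**Figure D1:**
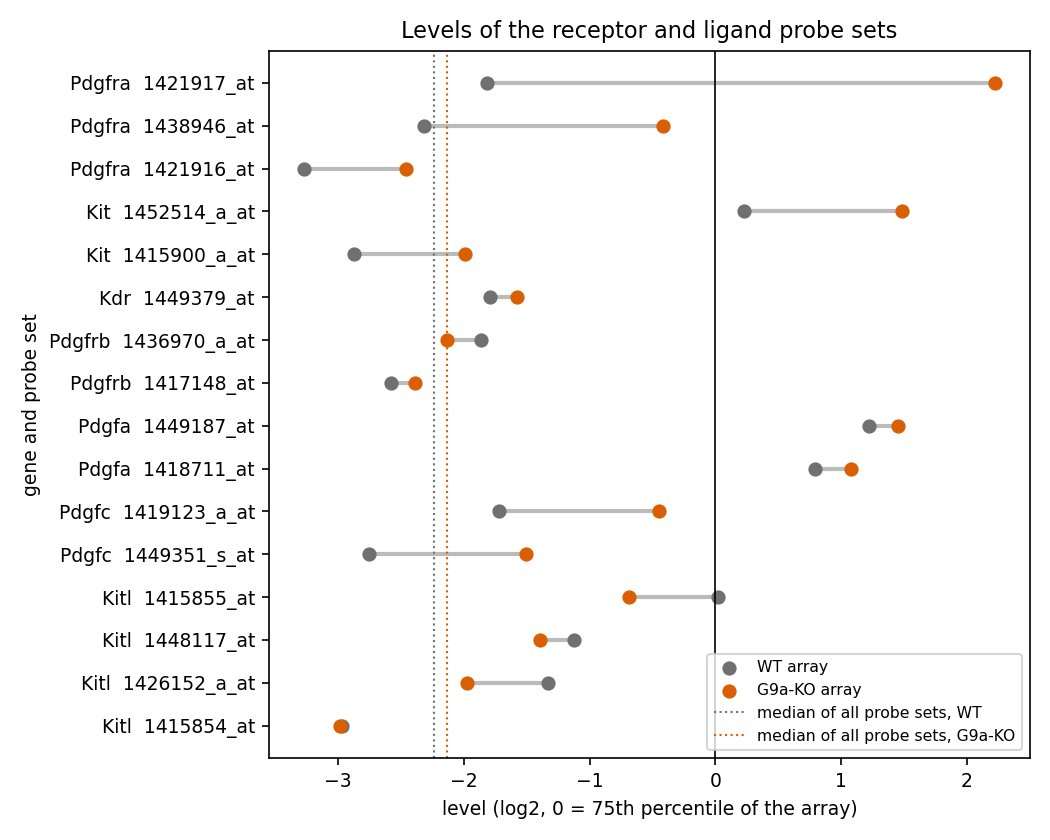
Level of each of the 16 probe sets (horizontal axis, log2 with 0 at each array's 75th percentile), with WT as a grey and G9a-KO as an orange point and dotted lines at the median of all probe sets. The brightest *Pdgfra* probe set runs from -1.82 to 2.22 and that of *Kit* from 0.23 to 1.48, whereas *Kdr* runs from -1.79 to -1.57 and the brightest *Kitl* probe set goes the other way, from 0.02 to -0.69.

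*Pdgfrb*, which encodes the other PDGF receptor and is made by fibroblasts and pericytes, was dim on both arrays and its probe sets differed in opposite directions. Probe set 1436970_a_at was at -1.86 in WT and -2.14 in G9a-KO, 1.21-fold lower, and 1417148_at was at -2.58 and -2.38, 1.15-fold higher. Neither passed 1.3-fold. By brightest probe sets, the difference of *Pdgfra* was 4.32 above that of *Pdgfrb* on the log2 scale.

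Among the ligands, those of PDGFRA were not alike. *Pdgfa* was bright on both arrays and differed little. Probe set 1449187_at was at 1.22 in WT and 1.45 in G9a-KO (1.17-fold higher), and 1418711_at, designed from the same source sequence, was at 0.79 and 1.08 (1.22-fold higher). *Pdgfc*, which encodes a PDGF that is secreted in a latent form and cut by proteases, was higher in G9a-KO. Probe set 1419123_a_at was at -1.72 and -0.45 (2.41-fold higher) and 1449351_s_at, again from a shared source sequence, at -2.75 and -1.50 (2.38-fold higher). The values of *Pdgfc* differed by only 0.018 between its probe sets, and its rank from the highest among all genes was 536, near that of *Kit* (548).

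*Kitl*, the ligand gene of KIT, was lower in G9a-KO, in the direction opposite to its receptor. Its brightest probe set 1415855_at was at 0.024 in WT and -0.69 in G9a-KO, 1.64-fold lower, and 1426152_a_at was at -1.33 and -1.98, 1.57-fold lower. Probe set 1448117_at was at -1.12 and -1.39, 1.21-fold lower and within the threshold, and the dimmest, 1415854_at, was below the median of both arrays and differed by -0.020. All 4 probe sets had the lower level in G9a-KO, 2 of them past 1.3-fold, and 3 of the 4 were designed from the same source sequence. The difference of *Kit* was 1.97 above that of *Kitl* on the log2 scale, which is a 3.91-fold wider ratio of receptor to ligand signal in G9a-KO.

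Among the 16 probe sets of the 7 genes, those over 1.3-fold higher in G9a-KO numbered 7 (*Pdgfra*, *Kit* and *Pdgfc*), against 16.8% of all probe sets, and 2 were over 1.3-fold lower (*Kitl*), against 13.1%. At 2-fold, 5 were higher, against 3.69% of all probe sets, and 0 were lower, against 2.81%. By the rule of the study, under which at least 1 probe set past 1.3-fold is enough, 3 of the 7 genes were higher, against 24.6% of all named genes, and 1 was lower, against 22.0%. These background shares turn with the scaling. Centring both arrays on the median moves every difference by -0.10 and gives 11.9% of all probe sets higher and 17.4% lower, and 18.3% and 27.9% of named genes by the rule of the study. As the genes were chosen with these values known, nothing is read from the shares. To show how wide differences are at a given brightness, each probe set was set beside the 2000 probe sets nearest to it in mean level. The central 95% of these ran from -1.38 to 1.62 at the brightest *Pdgfra* probe set, which lay above that range, as did the second *Pdgfra* probe set (range -1.37 to 1.60). The other 14 probe sets were inside their ranges, including those of *Kit* (-1.23 to 1.56 for the brighter), *Pdgfc* (-1.37 to 1.62) and *Kitl* (-1.42 to 1.79 for the brightest). These ranges hold real and technical differences together. The 18 probe sets for RNA spiked in for hybridization control differed by -0.16 to 0.21.

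**Figure D2:**
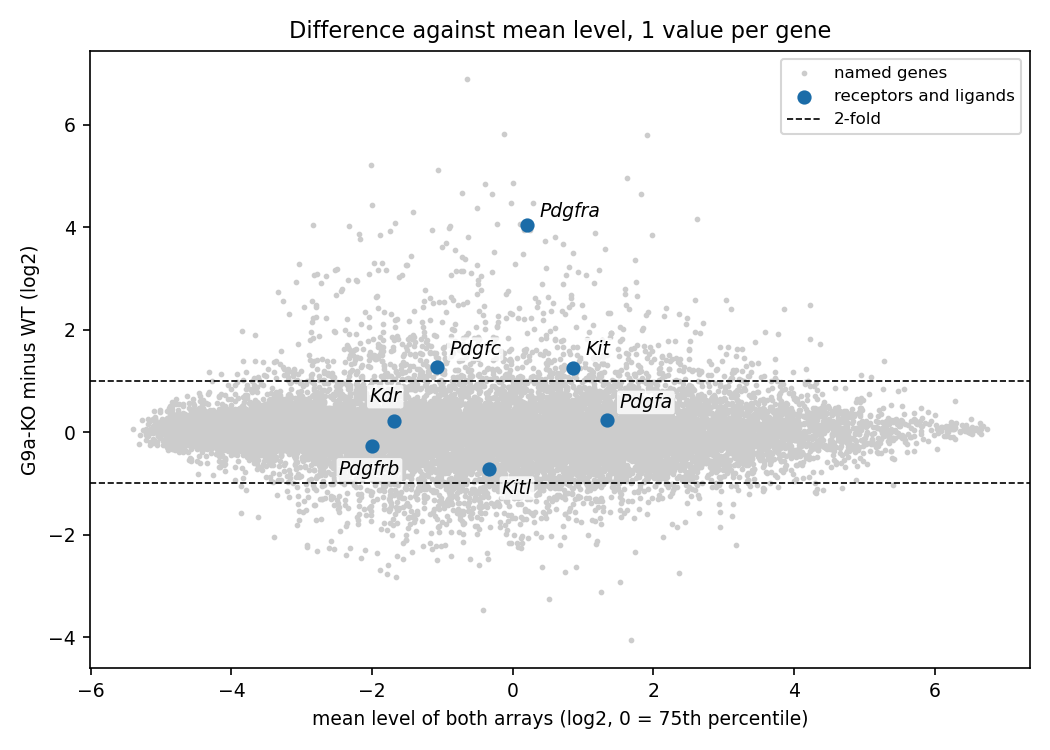
G9a-KO minus WT (log2, vertical axis) plotted over the mean level of both arrays (log2, 0 is the 75th percentile, horizontal axis), 1 grey point for the brightest probe set of each of 18194 genes and blue points for the receptor and ligand genes, with dashed lines at 2-fold. *Pdgfra* lies at 4.04 among few other genes, *Kit* (1.26) and *Pdgfc* (1.27) lie just above the upper dashed line at the edge of the dense cloud, and the other genes lie within it.

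The other receptors of these families showed no common direction. With 1 value per gene, that of the brightest probe set, 17.4% of all named genes passed 1.3-fold upwards in G9a-KO and 17.2% downwards, with a median difference of 0.036. The 5 class III receptor genes had a median of 0.40, with 3 higher and 0 lower. Besides *Pdgfra* and *Kit* this was *Csf1r*, the receptor gene of macrophage growth factor, which was dim and just past the threshold (1.32-fold higher, and 1.06-fold and 2.46-fold higher by its other probe sets). *Flt3*, a receptor of blood progenitors, differed by -0.022. The 5 VEGF receptor and co-receptor genes included 1 higher and 1 lower, and had a median of 0.22, which is the value of *Kdr* itself. The co-receptor gene *Nrp2* was 2.33-fold higher, from -0.098 to 1.12, but its other probe sets differed by -0.041 to 0.35. *Nrp1* was 1.41-fold lower but below the median of both arrays. *Flt1*, whose product binds VEGF without strong signalling, differed by 0.29 (from -0.19 to 0.47 by its other probe sets) and *Flt4*, a receptor of lymphatic vessels, by -0.28.

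The ligand families were mixed as well, and their counts stand beside 17.4% of all named genes over 1.3-fold higher and 17.2% lower. Of the 4 PDGF ligand genes, *Pdgfc* was higher and none was lower (median 0.28), as *Pdgfb* differed by 0.33 and *Pdgfd*, below the median on both arrays, by 0.23. Of the 3 measured ligand genes of KIT, CSF1R and FLT3, *Kitl* was lower, *Csf1* was within the threshold (0.21) and *Il34*, a second ligand of CSF1R, was 1.68-fold higher from a level below the median in WT. The median of the 5 VEGF ligand genes was -0.085, with 2 of them higher and 1 lower. *Vegfa*, which encodes the main ligand of KDR, went from -1.77 in WT to -0.073 in G9a-KO (3.25-fold higher, and 0.69 higher by its other probe set). *Vegfd* was 1.53-fold higher (0.97 and 1.45 by its other probe sets), but its WT level was below the median. *Pgf*, the placental growth factor gene, was 1.95-fold lower. *Vegfb* (-0.085) and *Vegfc* (-0.33) stayed within 1.3-fold. The gene of a main ligand thus had a higher level where its receptor *Kdr* was about level, while for KIT the receptor gene was higher and the ligand gene lower.

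**Figure D3:**
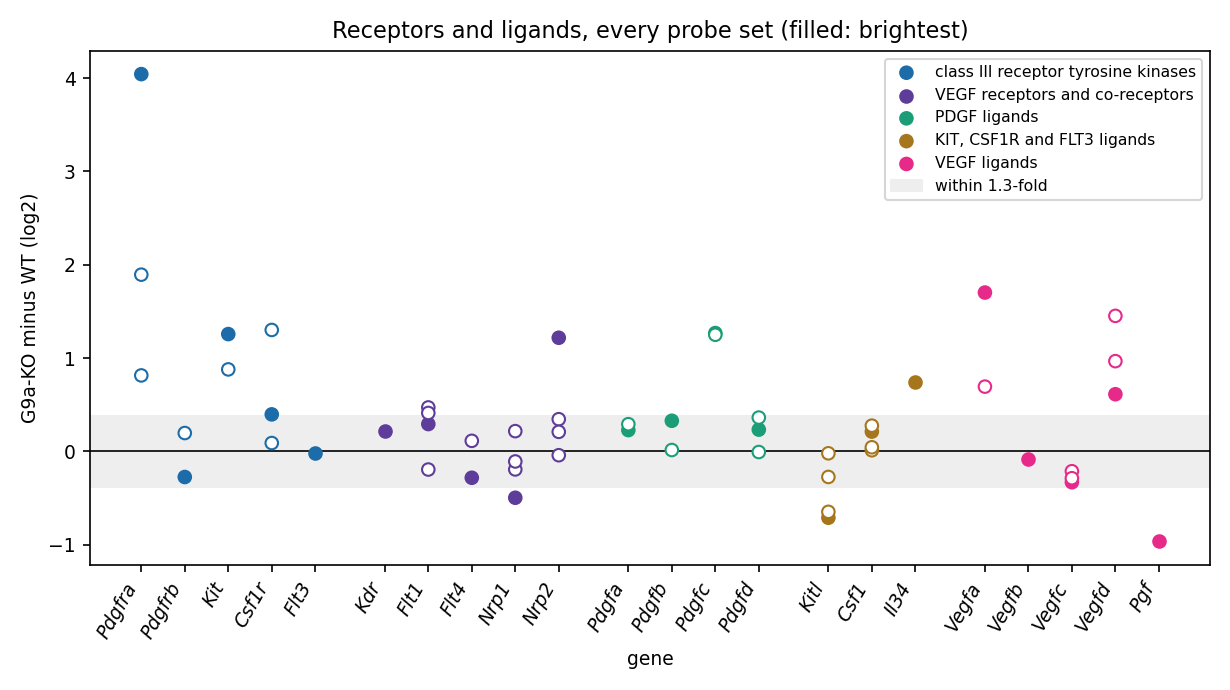
G9a-KO minus WT on the vertical axis (log2) for each probe set of the receptor and ligand genes of the PDGF, KIT and VEGF families (horizontal axis, colours by family), with the brightest probe set of each gene filled and the range within 1.3-fold shaded. All *Pdgfra*, *Kit* and *Pdgfc* points lie above the shaded range, *Kdr*, *Pdgfrb* and *Pdgfa* lie inside it, and *Kitl* reaches -0.71 below it.

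Proteases that act on these ligands and receptors, and the proteins that carry the signal into the cell, were examined next. Of all named genes, 17.4% were over 1.3-fold higher and 17.2% lower. Among 8 protease genes (median 0.20), 2 were higher and 1 lower. *Adam10*, which encodes a membrane protease that sheds surface proteins, was 2.70-fold higher, and the proprotein convertase genes *Pcsk6* (1.40-fold higher) and *Pcsk7* (1.40-fold lower) went opposite ways. *Plat*, whose product can activate PDGF-C, differed by 0.16, *Furin*, which cleaves PDGF precursors, by 0.33 and *Adam17* by 0.16. *Pcsk5* (0.24) and *Plau* (0.023), whose product activates PDGF-D, were within the threshold too. The 36 measured genes for signalling adaptors and enzymes had a median of -0.15, and 3 passed 1.3-fold upwards and 7 downwards. The sign of this median depended on the probe set taken. It was 0.069 with the mean over each gene's probe sets and 0.17 with the most different one. The 3 higher genes were *Gab2* (1.64-fold, but -0.19 and 0.20 on the log2 scale by its other probe sets), *Jak2* (1.57-fold, and 1.33) and *Plcg1* (1.52-fold, and 0.092 and 0.26). *Sos1*, an activator of RAS, was 2.94-fold lower by its brightest probe set, while its other probe sets differed by -0.019 to 0.52. *Pik3ca*, the catalytic subunit of a PI3 kinase, was 1.95-fold lower (from -1.49 to 0.38 by its other probe sets) and the RAS gene *Nras* 1.91-fold lower (-0.75 and -0.38).

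The genes on either side of the receptors on chromosome 5 did not share the difference of *Pdgfra*. RefSeq lists no other protein-coding gene between *Pdgfra* and *Kdr* than *Kit*. Of the 8 nearest protein-coding genes before *Pdgfra*, all measured, 2 were over 1.3-fold higher (17.4% of all named genes) and 0 lower (17.2%), with a median of 0.20. These were *Scfd2*, a gene of vesicle transport (1.70-fold higher, and 0.58 by its other probe set), and the deubiquitinase gene *Usp46* (1.42-fold higher, and 0.065 by its other probe set). The nearest of them, the neural homeobox gene *Gsx2*, was dim at -3.21 in WT and -3.14 in G9a-KO and differed by 0.076. *Chic2* differed by -0.28 (from -0.64 to 0.056 by its other probe sets), *Lnx1* by 0.24, *Fip1l1* by 0.16 (from -0.56 to 0.90 by its other probe sets), *Rasl11b* by 0.28 and *Spata18* by -0.080.

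Of the 8 nearest genes after *Kdr*, also all measured, 0 were higher (17.4% of all named genes) and 4 were lower (17.2%), with a median of -0.36. The nearest, *Srd5a3*, which acts in protein glycosylation, was 1.39-fold lower (from -0.51 to 0.056 by its other probe sets) and *Clock*, a circadian transcription factor gene, 1.37-fold lower (from -0.38 to 0.45 by its other probe sets). *Pdcl2* (1.40-fold) and *Cep135* (1.52-fold) were lower too but lay below the median of both arrays. *Tmem165* (-0.036), *Exoc1* (-0.27), *Nmu* (0.19) and *Cracd* (0.18) stayed within the threshold, although another probe set of *Cracd* differed by -1.58. Over both sides, 2 of the 16 genes were over 1.3-fold higher and 4 lower, and nothing is read from the contrast between the sides. By brightest probe sets, *Pdgfra* and *Kit* were over 2-fold higher and 0 of the 16 genes around them were, against 839 of all 18194 named genes. As *Pdgfra* and *Kit* were chosen on these differences, nothing is read from this contrast either.

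**Figure D4:**
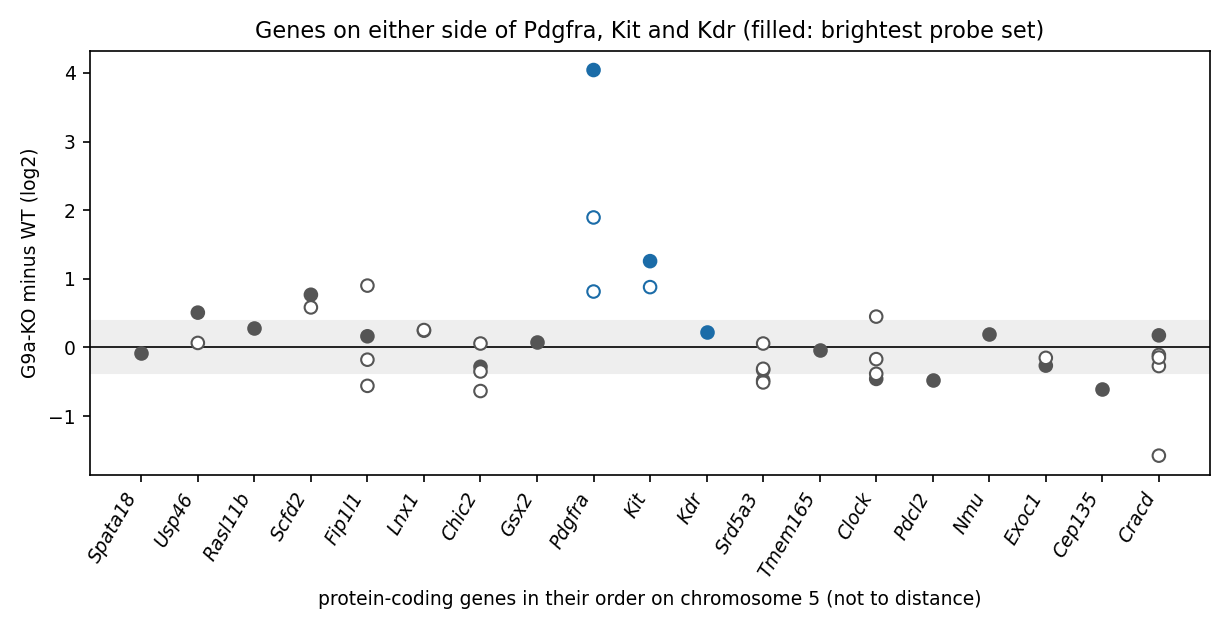
Log2 difference, G9a-KO minus WT (vertical axis), for the 8 protein-coding genes on each side of *Pdgfra*, *Kit* and *Kdr* in their order on chromosome 5 (horizontal axis, not to distance), 1 point per probe set with the brightest filled, the receptors in blue and the range within 1.3-fold shaded. *Pdgfra* (4.04) and *Kit* (1.26) stand above all neighbours, whose brightest probe sets lie between -0.60 and 0.77.

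As *Pdgfra*, *Kit* and *Kdr* mark different cell types, markers of those types were set beside them. The lists of markers were drawn up with earlier results of these data known, so their counts are descriptions. The primitive endoderm markers, *Pdgfra* left out, had a median difference of 2.87. Of the 20, 19 were over 1.3-fold higher in G9a-KO and 0 lower, against 17.4% and 17.2% of all named genes. The summed linear level of these markers was 6.64 times as high in G9a-KO, and 14 of them were above the 75th percentile there against 3 in WT. Of the 20, 7 had a larger difference than *Pdgfra*, led by the endocytic receptor gene *Cubn* (5.82), the proteoglycan gene *Srgn* (5.79) and the collagen gene *Col4a1* (4.95), and 17 had a larger difference than *Kit* or *Pdgfc*.

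Markers of endothelium and blood progenitors, in which *Kdr* and *Kit* are used, had a median of 0.056. Of the 17, 4 were higher and 1 lower, against 17.4% and 17.2% of all named genes. *Tek*, an angiopoietin receptor gene (2.94-fold higher), and the adhesion gene *Pecam1* (2.66-fold higher), which ESCs also express, were the highest and *Sox18* (2.92-fold lower) the lowest, and 8 of the 17, including the defining genes *Cdh5* and *Tal1*, were below the median of both arrays. Mesoderm markers had a median of 0.13, with 3 of 13 higher and 1 lower, among them *Eomes* (1.59-fold higher), *Hand1* (1.32-fold higher) and *Tcf15* (3.46-fold lower). Primordial germ cell markers, of which 7 of 7 exceeded the array medians, had a median difference of 0.20, with 2 of 7 higher (*Dazl*, 6.13-fold, and *Prdm1*, 2.31-fold) and 3 lower (*Dppa3*, 1.82-fold, *Tfap2c* and *Dnd1*).

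Fibroblasts make both PDGF receptors and could enter from a feeder layer. The median over 20 fibroblast markers was 0.098, and their summed linear level was 1.54 times as high in G9a-KO. Of the 20, 5 were higher and 1 was lower, against 17.4% and 17.2% of all named genes. *Col5a2* (8.32-fold higher), *Col6a3* (2.58-fold) and *Col1a2* (1.78-fold, but -0.23 and 0.14 on the log2 scale by its other probe sets) were the highest of those above the median on either array. *Twist1* (1.39-fold) and *Lum* (1.98-fold, but below the median of both arrays) were higher too. Of the 20, 11 were below the median of both arrays, among them *Col1a1*, *Col3a1*, *Dcn*, *Postn* and *Prrx1*. By brightest probe sets, *Col5a1*, *Col6a2*, *Fbln2*, *Acta2* and *Tagln* were above the median of both arrays and differed by less than 1.3-fold. The dimmer *Pdgfrb* probe set was below both medians, and the brighter one was above that of WT only. Pluripotency markers were bright on both arrays, all 8 above the 75th percentile, and had a median of -0.20. Of these, *Tfcp2l1* was 2.20-fold higher (0.12 and 0.20 on the log2 scale by its other probe sets), and *Zfp42* (1.73-fold) and *Pou5f1* (1.37-fold) were lower. The part of these cell types in the values of *Pdgfra*, *Kit*, *Pdgfc* and *Kitl* was not tested.

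**Figure D5:**
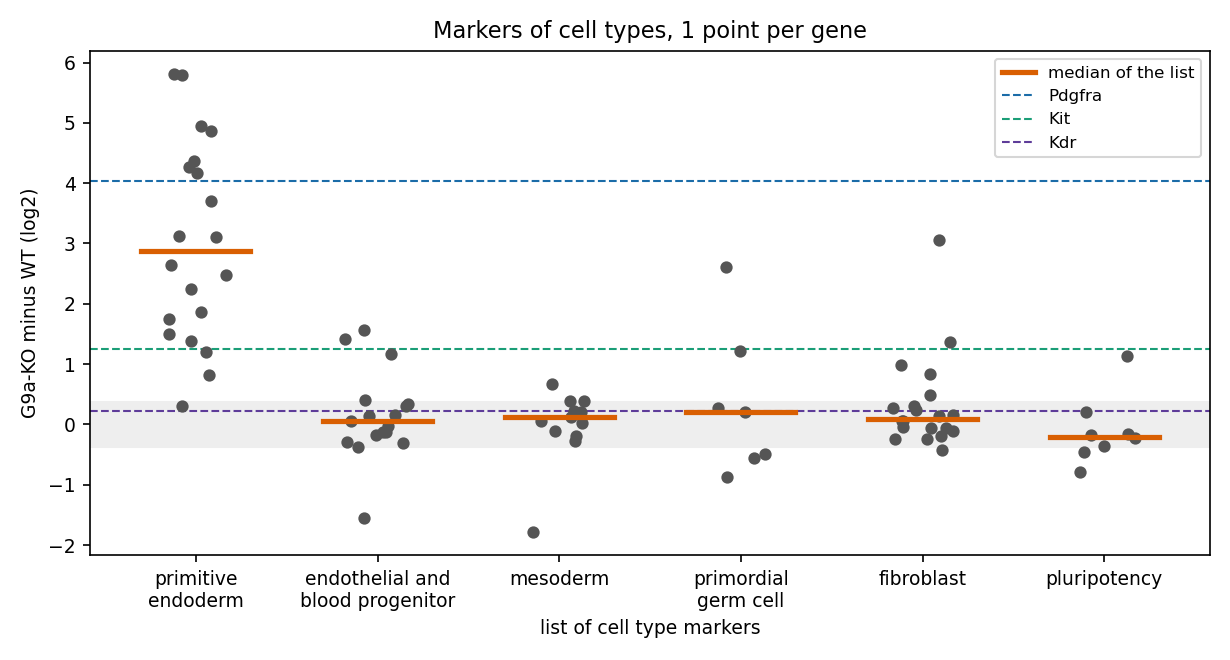
Values of G9a-KO minus WT (vertical axis, log2) for lists of cell type markers (horizontal axis), 1 point per gene with a bar at the median of the list, dashed lines at the values of *Pdgfra*, *Kit* and *Kdr* and the range within 1.3-fold shaded. The primitive endoderm markers spread from 0.30 to 5.82 around the line of *Pdgfra*, and the medians of the other lists lie between -0.20 and 0.20, near the line of *Kdr* (0.22) or below it. The lists were drawn up with earlier results of these data known.

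The genes most like each receptor over the 2 arrays were those at the smallest distance in the plane of WT and G9a-KO levels. For *Pdgfra* these were *Gm9112* (distance 0.095 on the log2 scale), *Gm11545* (0.10) and *Pdk4* (0.13), a kinase gene of energy metabolism, and only 7 genes lay within 0.5. For *Kit* they were *Rcn3* (0.083), *Gabpb1* (0.096) and *Tef* (0.11), with 148 genes within 0.5. For *Kdr* they were *Mpzl3* (0.0064), *Eva1c* (0.020) and *Trim62* (0.022), with 1247 genes within that distance. A pattern of 2 values is shared by many genes where the difference is small, and levels of different probe sets also depend on how well each binds.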

How the data were processed

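Total RNA (200 ng per sample) of WT and G9a-KO ESCs was hybridized to Affymetrix mouse expression arrays, 1 per group. The deposited values are log2 expression values that the authors made with RMA (version not given in the sources used here), and the submitters' processing notes name R 3.2.1. RMA evens out probe intensities between arrays, so a change in total RNA per cell cannot be seen. It does so before summarising per probe set, and the summarised values still differed a little in median. The 75th percentile was subtracted from each array, as in the study's methods, and differences are G9a-KO minus WT for each probe set. Of 45101 probe sets, 34958 carried 1 gene symbol in GEO's platform annotation, 932 several and 9211 none here. All 16 probe sets of the 7 genes matched RefSeq by gene ID. The table of neighbouring genes is that of GRCm38.p6. Only the order of these genes is given, because no build is named for the array, and the coordinates printed are those of the promoter windows.

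A gene's value is that of its brightest probe set by mean over both arrays. Genes named are the 7 genes, all measured genes of their families, proteases and neighbours, *Ehmt2*, the genes most like each receptor, the 3 most different per other list among those above the median on an array, and further list genes singled out after their values were seen. Of 162 list memberships in 13 lists, 151 were measured. Members and lists were chosen with earlier results of these data known. The 2000-probe-set comparison and the CpG limit were added after the data were seen. No p-value or SE exists with 1 array per group, and precision is limited by the number of arrays. Steps were tested on simulated data. Analyses used Python 3.11.15, pandas 2.3.3 and statsmodels 0.14.6. The alternatives were no shift, median centring, quantile normalization, lowess (span 0.3), brighter probe sets only, no _s_at, _x_at or _a_at probe sets, and, per gene, the mean or the most different of its probe sets.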

Additional observations from a re-analysis of the deposited data

How the results depend on the processing

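Under 8 alternatives, 297 of 305 values stayed on the same side of 1.3-fold (for shares, within 1.5 times) and 0 changed direction across it. Some of these could not change, as leaving out probe sets does not alter the values of those that stay. Taking the most different probe set cannot shrink a gene's difference, and brightest probe sets were counted both singly and as genes. The count thus overstates stability. *Pdgfra* ranged from 2.25 (mean over its probe sets) to 4.06, *Kit* from 1.07 to 1.28, *Pdgfc* from 1.17 to 1.27, *Kitl* from -0.81 to -0.41, *Kdr* from 0.12 to 0.22 and *Pdgfa* from 0.13 to 0.29. *Pdgfrb* ran from -0.38 to 0.20 and so changed sign within the threshold. Without _s_at, _x_at and _a_at probe sets, *Kit* and *Pdgfc* had none left, and the median of the KIT, CSF1R and FLT3 ligands was that of *Kitl* (-0.71). The median of the class III receptors, set by *Csf1r*, fell within 1.3-fold without a shift (0.34), under median centring (0.29), quantile normalization (0.33) and lowess (0.34). Among brighter probe sets the shares were 21.2% over 1.3-fold lower, and 6.41% over 2-fold higher and 5% lower. Signal over background is not given by values summarised per probe set, which limits what dim probe sets can show. No paired analysis was possible because each group has 1 array.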
